A study of Mus musculus with 15 samples.

Results

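Sox10, Cdh19, Ngfr, S100b and Gfap are 5 genes that mark the Schwann cells of the islet capsule. Their rows were taken by symbol from a deposited table of 48709 genes. No measured value entered this rule, but the 5 genes were chosen with earlier results of these data known. RNA was sequenced from the pancreatic islets of 15 female NOD mice, 3 at each of 5 ages, which were 4, 6, 8, 10 or 12 weeks. NOD is an inbred strain in which autoimmune diabetes develops spontaneously, and every sample carries the same NOD genotype, with no treatment and no other strain as a control. Age and the progress of the disease therefore cannot be told apart. The comparisons were 12 against 4 weeks, the extremes of the series, and each age against the one before it, which ask in which interval a gene changes.

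Peri-islet Schwann cells are non-myelinating glia that wrap the islet as a thin sheath at its border with the exocrine tissue and accompany the autonomic axons that enter it. They are known by their S100B and GFAP proteins, and in NOD mice the sheath lies in the path of the infiltrating leukocytes and is itself a target of autoreactive T cells. SOX10 is the transcription factor that specifies and maintains the Schwann cell lineage. Cadherin 19, the product of Cdh19, is an adhesion molecule of Schwann cells and their precursors. Ngfr encodes the low-affinity neurotrophin receptor, which immature and injured Schwann cells carry, and which follicular dendritic cells and other lymphoid stromal cells carry as well. S100b encodes a small calcium-binding protein of glia, and Gfap an intermediate filament of glia that pancreatic stellate cells also make.

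On the GRCm38 build, Sox10 lies on chromosome 15 (79154913 to 79164490, minus strand), Cdh19 on chromosome 1 (110888326 to 110977584, minus strand) and S100b on chromosome 10 (76253853 to 76261159, plus strand). Ngfr (95568818 to 95587735) and Gfap (102887336 to 102900912) are both on the minus strand of chromosome 11. All 5 are protein coding. The S100b gene is overlapped on the opposite strand by Dip2a and the Gfap gene by the non-coding RNA Gm26668, in both cases without overlap of exons. Reads of introns from either partner could not be separated if strand was ignored. Counting used the default settings of the CLC Workbench, which the sources used here do not spell out for strand.

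Promoter sequence was matched by symbol in RefSeq for 3 of the 5 genes, and is shown as the sequence at which transcription of these genes is annotated to start. Each window runs from 250 bases before to 20 bases after the annotated start on GRCm38.p6, 5′ to 3′ on the strand of the gene, at chr10:76253586-76253855 (S100b, plus), chr11:95587679-95587948 (Ngfr, minus) and chr11:102897181-102897450 (Gfap, minus). The RefSeq start of Gfap lies inside the gene as the count table places it, so the sources give this gene different starts. Capitals mark a match to the STAT-binding GAS motif, TTCNNNGAA.
S100b: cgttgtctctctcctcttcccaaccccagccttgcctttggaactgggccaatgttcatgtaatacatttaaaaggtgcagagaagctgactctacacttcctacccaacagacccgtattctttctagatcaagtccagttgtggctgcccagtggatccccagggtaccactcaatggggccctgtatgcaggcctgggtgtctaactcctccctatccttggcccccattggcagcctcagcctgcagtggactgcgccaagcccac
Ngfr: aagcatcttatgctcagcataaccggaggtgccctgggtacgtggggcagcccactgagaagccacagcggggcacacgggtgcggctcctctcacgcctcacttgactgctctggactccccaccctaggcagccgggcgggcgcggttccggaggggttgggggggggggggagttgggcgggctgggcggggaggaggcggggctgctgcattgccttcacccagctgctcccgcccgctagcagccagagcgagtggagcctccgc
Gfap: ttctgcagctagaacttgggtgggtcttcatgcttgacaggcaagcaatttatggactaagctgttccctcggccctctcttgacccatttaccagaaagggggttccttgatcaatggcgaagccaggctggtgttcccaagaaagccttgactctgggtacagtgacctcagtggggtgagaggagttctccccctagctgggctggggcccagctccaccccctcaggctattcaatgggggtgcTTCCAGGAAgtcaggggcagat
The Ngfr window was the richest in G and C of the 3, with 70.4% against 54.8% for S100b and 55.9% for Gfap, where the median of 32851 promoters was 52.6%. It held 18 CpG dinucleotides, more than 74.8% of promoters, while S100b held 3 and Gfap 2. The forms ACAAAG and ACAATG of the core motif of SOX factors, searched on both strands, were in none of the 3 windows and in 26.7% of all promoters. Forms with T in place of the first A, such as the TCAATG in the S100b and Gfap windows, were not searched. The GAS motif, which reads the same on either strand and was chosen after the sequences were seen, was found once in the Gfap window, starting 2 bases before the start, and in 7.58% of all promoters. These matches describe letters only and show no binding.

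Counts per sample ran from 25407492 to 41616275, and levels are given as CPM, the counts divided by the TMM-scaled library size, where 3 counts correspond to 0.0754 to 0.128 CPM. Of the islet endocrine markers, 12 of 12 were measured at every age and 22 of 22 leukocyte markers rose from 4 to 12 weeks. Libraries of 12-week replicate 1 and 6-week replicate 2 held 6135 and 1317 counts of intestinal genes other than Vil1, against 96 to 301 in the other samples, and results are given without them where a call changed. All 5 genes passed the filter on low counts, with 581 (S100b) to 8264 (Ngfr) counts over the 15 mice. In bulk tissue, fewer cells of a type and less RNA per cell cannot be told apart.

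Between genes, levels were compared in TPM, which the authors scaled by gene length. At 4 weeks Ngfr came first with 3.84 ± 1.61 TPM (SD, n = 3), followed by Sox10 with 2.57 ± 0.346, S100b with 1.04 ± 0.227, Gfap with 0.926 ± 0.337 and Cdh19 with 0.503 ± 0.0895. Each gene overlapped its neighbour in this order except Sox10 and S100b. At 12 weeks the order was the same, with Ngfr at 25.9 ± 7.28, Sox10 at 5.11 ± 0.143, S100b at 2.57 ± 0.411, Gfap at 1.97 ± 0.135 and Cdh19 at 1.11 ± 0.185, and no neighbours overlapped.

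From 4 to 12 weeks, Ngfr, S100b, Cdh19 and Sox10 rose, and Gfap did not pass the test. Ngfr rose 5.15-fold, while the other 3 rose 1.52-fold to 1.88-fold. Thus 4 of 5 genes were called higher at an adjusted p under 0.05 (edgeR's quasi-likelihood test with Benjamini-Hochberg adjustment over 16554 genes), where 26.3% of all genes tested were called higher. For each of the 5 genes every mouse of 12 weeks lay above every mouse of 4 weeks, as it did for 30.3% of all genes, and the exact permutation test of 3 against 3 mice gave 0.1 for each, the smallest p it allows. At the fold threshold of the study, a change of at least 1.5-fold with an unadjusted p under 0.05, the same 4 genes passed, against 20.9% of all genes in this direction. Without the filter on low counts only Ngfr was called (edgeR adjusted p 0.071 to 0.131 for the other 3). When all ages were tested jointly, only Ngfr passed (adjusted p = 0.00249, edgeR), where 56% of all genes did. The adjusted p of that joint test was 0.0617 for Cdh19, 0.0833 for S100b, 0.142 for Sox10 and 0.176 for Gfap.

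**Figure D1:**
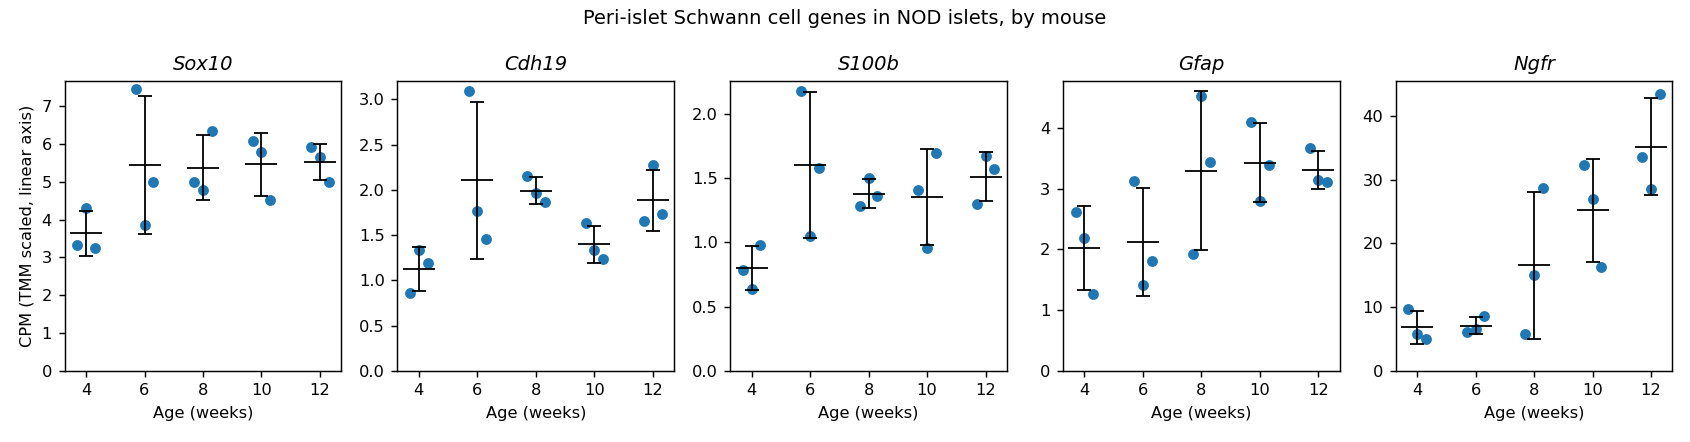
CPM (linear axis, TMM scaled) of the 5 genes against age in weeks, with 1 point per mouse and the mean ± SD of 3 mice. Sox10, Cdh19 and S100b are lowest at 4 weeks and vary most at 6 weeks, while Ngfr stays under 10 CPM at 4 and 6 weeks and reaches 28.5 to 43.5 at 12 weeks.

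Sox10 stood at 3.33, 4.32 and 3.26 CPM in the mice of 4 weeks and at 7.45, 3.87 and 5.01 in those of 6 weeks. At 8 weeks it read 5, 4.78 and 6.36 CPM, at 10 weeks 6.08, 5.8 and 4.52, and at 12 weeks 5.93, 5.65 and 5. The means by age were 3.64 ± 0.593, 5.44 ± 1.83, 5.38 ± 0.855, 5.47 ± 0.832 and 5.53 ± 0.479 CPM, so that the 4-week mice were the low group and the later means differed by less than the SD at any of those ages. The rise from 4 to 12 weeks was 0.61 on the log2 scale (SE 0.227, 95% interval 0.11 to 1.10, edgeR adjusted p = 0.0389). The call was lost without 4-week replicates 1 or 3 or any 12-week replicate (log2 change 0.53 to 0.67, edgeR adjusted p 0.0536 to 0.122), and without both libraries that held intestinal counts (0.55, edgeR adjusted p = 0.0637).

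Cdh19 was the least abundant of the 5 per length. It read 0.861, 1.33 and 1.19 CPM at 4 weeks, 3.09, 1.76 and 1.46 at 6 weeks and 2.15, 1.96 and 1.86 at 8 weeks. At 10 weeks it read 1.63, 1.33 and 1.23 CPM, and at 12 weeks 1.65, 2.27 and 1.73. The 4-week mice were below those of every later age except 10 weeks, whose lowest mouse lay within their range. The rise from 4 to 12 weeks was 0.74 (log2, SE 0.283, 95% interval 0.13 to 1.35, edgeR adjusted p = 0.0414), and it was no longer called without 4-week replicates 1 or 3, 8-week replicates 1 or 3, 10-week replicate 2 or 12-week replicates 2 or 3 (0.58 to 0.80, edgeR adjusted p 0.0515 to 0.146). Without both libraries with intestinal counts it was 0.83 (edgeR adjusted p = 0.0528).

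S100b had the fewest reads, with 15 to 27 in the mice of 4 weeks and 35 to 55 at the later ages. In CPM these were 0.786, 0.641 and 0.977 at 4 weeks, 2.18, 1.05 and 1.58 at 6 weeks and 1.28, 1.5 and 1.36 at 8 weeks. At 10 weeks S100b read 1.41, 0.955 and 1.7 CPM, and at 12 weeks 1.3, 1.67 and 1.57. All mice of 6, 8 and 12 weeks were above the highest of 4 weeks, and 1 mouse of 10 weeks was not. The rise from 4 to 12 weeks was 0.91 (log2, SE 0.299, 95% interval 0.26 to 1.56, edgeR adjusted p = 0.0217). It was not called without 4-week replicates 1 or 2 or 12-week replicates 2 or 3 (0.77 to 0.89, edgeR adjusted p 0.0564 to 0.0801).

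Gfap read 2.62, 2.18 and 1.27 CPM at 4 weeks, 3.13, 1.42 and 1.81 at 6 weeks and 1.93, 4.53 and 3.43 at 8 weeks. At 10 weeks it read 4.09, 2.79 and 3.39 CPM, and at 12 weeks 3.66, 3.14 and 3.11. Ages overlapped throughout except that the 12-week and 10-week mice lay above those of 4 weeks. The difference between 12 and 4 weeks was 0.71 (log2, SE 0.358, 95% interval -0.07 to 1.49, edgeR adjusted p = 0.111), an interval that reaches from 0.955-fold to 2.8-fold.

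Ngfr read 9.77, 5.73 and 4.96 CPM at 4 weeks and 6.1, 6.5 and 8.67 at 6 weeks. At 8 weeks the mice spread over 5.8, 15.1 and 28.7 CPM, at 10 weeks over 32.3, 26.9 and 16.3, and at 12 weeks over 33.5, 28.5 and 43.5. The mice of 4 and 6 weeks were low, those of 10 and 12 weeks high, and the 8-week mice covered both levels. The rise from 4 to 12 weeks was 2.37 (log2, SE 0.472, 95% interval 1.34 to 3.39, edgeR adjusted p = 0.00144), and it was called with any mouse left out (2.18 to 2.72). Relative to Sox10, in a contrast chosen after the values were seen, Ngfr stood 0.84, 0.41, 1.34, 2.14 and 2.64 log2 units higher in CPM from 4 to 12 weeks by age, and the difference between 12 and 4 weeks was 1.79 (exact permutation p = 0.1, the smallest possible).

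The levels of other cell types moved with age alongside these genes. The summed CPM of the leukocyte markers was 49.3 to 246 at 4 weeks, 177 to 1010 at 8 weeks and 2050 to 2400 at 12 weeks, with up to 4 of 22 at 0 in a 4-week mouse. Markers of follicular dendritic cells and lymphoid stroma, some of them shared with leukocytes, summed to 241 to 340 CPM at 4 weeks and 1160 to 1340 at 12 weeks. By edgeR 9 of 9 were higher, with up to 3 at 0 in a 4-week mouse. At 4 weeks Enpp2 made up most of this sum (mean 223 CPM), while Cr2 and Cxcl13 averaged 0.0677 and 0.689. At 12 weeks Enpp2, Mfge8 and Glycam1 averaged 390, 320 and 223 CPM, and Cr2 and Cxcl13 52.6 and 80.8. Markers of fibroblasts, stellate cells and pericytes summed to 578 to 783 and 1500 to 2260 CPM, 10 of 12 higher. The endocrine markers summed to 22500 to 23500 CPM at 4 weeks and 11200 to 14000 at 12 weeks, 11 of 12 lower. With the mean of the leukocyte markers as a covariate, the log2 difference between 12 and 4 weeks was -0.38 for Ngfr, -0.11 for Gfap, 0.66 for Sox10, 1.32 for S100b and 1.73 for Cdh19, and none was called (edgeR adjusted p 0.334 to 0.98). That fit called 2 of all genes tested. The leukocyte sums of 4 and 12 weeks did not overlap, so the covariate fit could not tell age from these markers. The part of these cells in the levels of the 5 genes was not tested.

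The size of the rise depended on the scaling. With the plain library totals, without TMM, the log2 change from 4 to 12 weeks was 0.85 for Sox10, 0.99 for Cdh19, 1.15 for S100b, 0.95 for Gfap and 2.61 for Ngfr, while the median of all genes moved from -0.05 to 0.20. Scaled to the endocrine markers, the values were 1.45, 1.58, 1.76, 1.55 and 3.24 in the same order, and the median of all genes was 0.80. Each gene lay above that median. A change of scaling moves all genes by about the same amount, so this distance could not differ between the 3 scalings. Gfap passed the test under the latter 2 (edgeR adjusted p = 0.0487 and 0.00423). Over all genes, library totals called 8376 of 16554 (78.3% of them higher) and the endocrine scaling 13162 (99% higher).

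**Figure D2:**
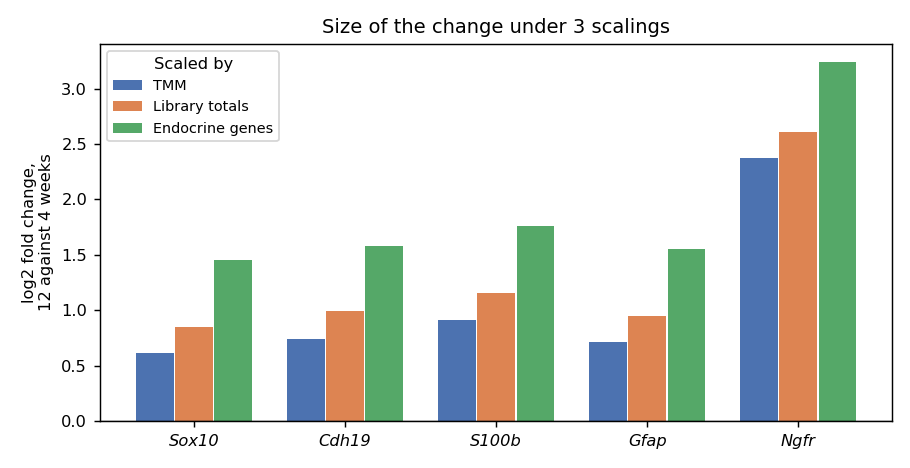
Log2 fold change of the 5 genes at 12 against 4 weeks (vertical axis, from 0) with 3 ways of scaling the libraries, as bars for TMM factors, library totals and endocrine markers. All bars are above 0, from 0.61 for Sox10 under TMM to 3.24 for Ngfr under the endocrine scaling.

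The first interval, from 4 to 6 weeks, held no call for any of the 5 genes, where 15 of all genes tested, or 0.0906%, were called (edgeR adjusted p under 0.05). S100b stood 0.98 higher on the log2 scale (SE 0.3, unadjusted p = 0.0062, edgeR adjusted p = 0.277) and Cdh19 0.90 higher (SE 0.283, unadjusted p = 0.00761, edgeR adjusted p = 0.303), both without overlap of the mice, as for 8.34% of all genes in this direction. Sox10 stood 0.58 higher with overlapping groups (unadjusted p = 0.025, edgeR adjusted p = 0.47). S100b and Cdh19 passed the fold threshold of the study, as 1.15% of all genes did in this direction, and all 3 had an unadjusted p under 0.05, as 3.79% did. Without 6-week replicate 1, the highest mouse of its age in all 3 genes, the changes were 0.70 for S100b, 0.52 for Cdh19 and 0.28 for Sox10, and only S100b passed that threshold. Ngfr differed by 0.05 (95% interval -0.95 to 1.06) and Gfap by 0.06 (-0.72 to 0.85).

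From 6 to 8 weeks no gene of the table was called by the adjusted test of edgeR (0%), although 2983 had an unadjusted p under 0.05, and the exact test of edgeR called 306 and DESeq2 543. Ngfr was 1.22 higher (log2, SE 0.46, 95% interval 0.23 to 2.22, unadjusted p = 0.0201, edgeR adjusted p = 0.212) with overlapping mice, and was the only one of the 5 past the fold threshold, against 8.4% of all genes in this direction. It rested on single mice, since the change was 0.56 without 8-week replicate 3 and 1.63 without 8-week replicate 1, when it was called (edgeR adjusted p = 0.0346). Leaving out 8-week replicate 1 brought 797 of 16870 genes past the adjusted test, 90.8% of them higher. Ngfr missed the fold threshold without 6-week replicates 1 or 2 (1.13 and 1.16) or without both libraries that held intestinal counts (1.16, edgeR adjusted p = 0.534). The leukocyte sum was 177 CPM in 8-week replicate 1, which had the lowest Ngfr of that age, 710 in replicate 2 and 1010 in replicate 3, which had the highest. Gfap stood 0.64 higher (95% interval -0.13 to 1.42, edgeR adjusted p = 0.353), and Sox10, Cdh19 and S100b differed by -0.21 to -0.01.

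From 8 to 10 weeks none of the 5 genes was called, where 16.8% of all genes were (edgeR). Cdh19 stood lower by 0.51 at 10 weeks (log2 change -0.51, 95% interval -1.11 to 0.09, edgeR adjusted p = 0.19), with every 10-week mouse below every 8-week mouse. Groups did not overlap in either direction for 32.7% of all genes. Ngfr stood 0.61 higher (edgeR adjusted p = 0.328). From 10 to 12 weeks none was called either (0% of all genes by edgeR, 1245 at an unadjusted p under 0.05, 12 by DESeq2). Cdh19 stood 0.43 higher again (edgeR adjusted p = 0.732), with the 12-week mice above all 10-week mice, as for 4.42% of all genes, and Ngfr 0.48 higher (edgeR adjusted p = 0.825).

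Other genes of Schwann cells were read from 5 lists with 33 genes, of which 32 could be tested. From 4 to 12 weeks 15 of them rose and 2 fell, where 26.3% of all genes rose and 27.2% fell, and their median log2 change was 0.61, against -0.05 over all genes tested. Among the transcription factors, Egr2, the regulator of myelination that activated T cells also express, rose by 3.48 and Foxd3, a neural crest factor, by 0.96, while Sox2 was too low to be tested. The neuregulin pathway, through which axons sustain Schwann cells, was higher in its ligand Nrg1 (1.32) and both receptor genes Erbb2 (1.40) and Erbb3 (0.62), and Lgi4, a secreted Schwann cell signal, rose by 1.38. With edgeR, adjusted p-values of these 6 genes were 0.000574 to 0.0181. Dhh, the Schwann cell hedgehog ligand, did not pass (edgeR adjusted p = 0.0522). The change of Egr2 was 4.69 without 4-week replicate 1, and Foxd3 was not called without 4-week replicate 2 or 12-week replicate 3 (0.77 and 0.91, edgeR adjusted p up to 0.0748). With the leukocyte covariate, which could not be told apart from age, none of the 6 was called. The duct markers Krt19 (1.74) and Muc1 (1.23), 2 of 5 in their list, also rose, and the part of duct cells in the level of Erbb2, which epithelia express as well, was not tested.

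The myelin genes split. Mbp, which encodes myelin basic protein, did not pass, with 2577 to 3101 counts in the 4-week mice and 3061 to 3288 in the 12-week mice (log2 change -0.08, 95% interval -0.30 to 0.13, edgeR adjusted p = 0.501). Cnp (2.10), Mal (1.33) and Mag (0.87) rose, so that 3 of 8 were higher and none lower by edgeR. Of these, Cnp and Mal are also made outside glia. In the list of non-myelinating cells 3 of 8 rose, the adhesion molecules L1cam (0.85) and Chl1 (0.59) and the sodium channel Scn7a (log2 change of 1), and 2 fell, Ncam1 (-0.74) and Gap43 (-0.37), which endocrine cells and axons also express. When libraries were scaled to the endocrine markers Ncam1 and Gap43 were at 0.10 and 0.47, above 0 but still below the median of all genes under that scaling (0.80). The call of Chl1 was lost without 4-week replicate 3 (0.55, edgeR adjusted p = 0.0545), and that of Scn7a without 4-week replicates 1 or 3 or 12-week replicates 2 or 3 (0.83 to 0.97, edgeR adjusted p up to 0.06). Without 4-week replicate 3 the list thus held 1 higher gene, and Mag was lost without 4-week replicates 1 or 3 (0.81 and 0.82, edgeR adjusted p = 0.0607 and 0.0622). In the adhesion and matrix list Gpm6b (2.47), Art3 (0.81) and Matn2 (0.67) rose, 3 of 7, and none fell.

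**Figure D3:**
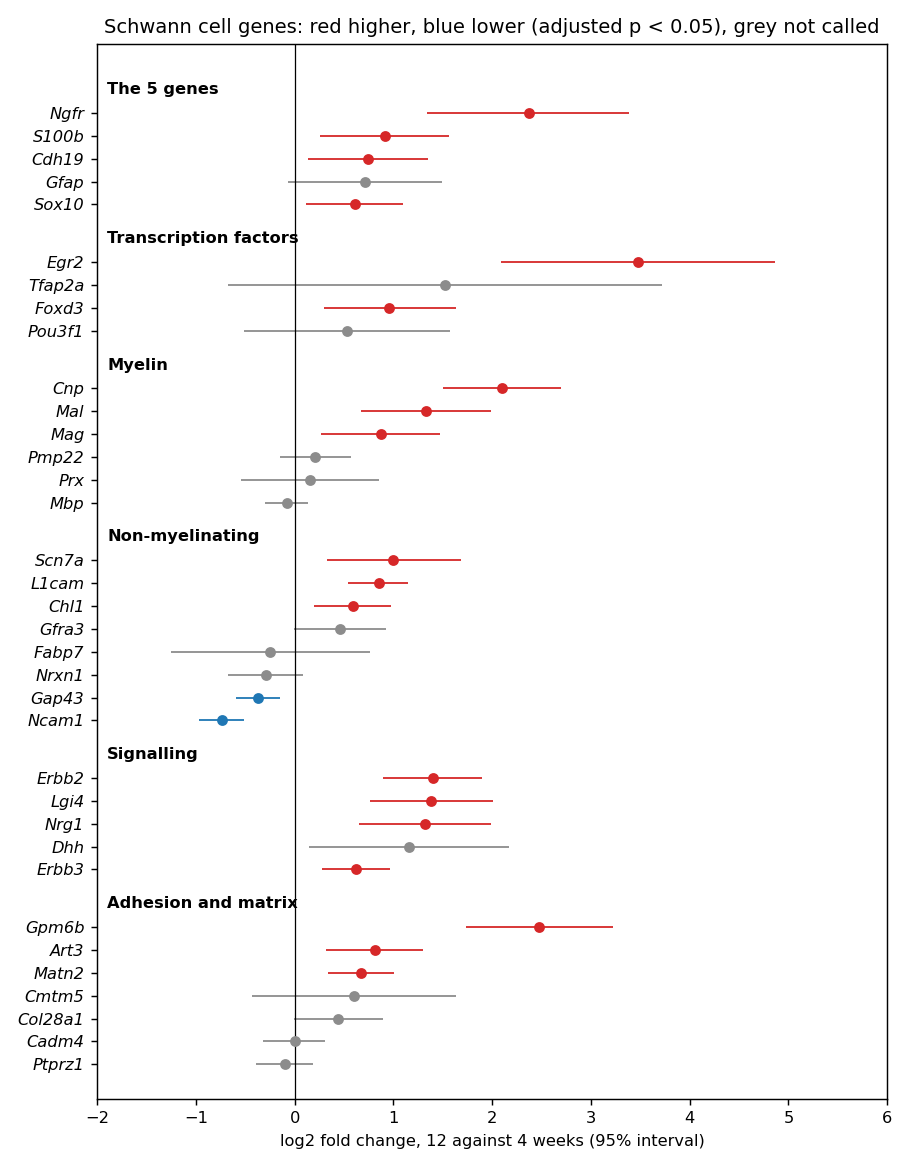
Log2 fold change at 12 against 4 weeks (horizontal axis) with its 95% interval for the 5 genes and other Schwann cell genes, grouped by role. Red marks genes called higher and blue genes called lower at an adjusted p under 0.05 (edgeR), and grey the rest. Ngfr is the highest of the 5, Egr2 and Gpm6b are the highest of the others, and Ncam1 and Gap43 are the only genes called lower.

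In the first interval, 6 of the 32 had an unadjusted p under 0.05 and all 6 stood higher at 6 weeks, among them Lgi4 (0.91), Mal (0.89), Scn7a (0.68), Col28a1 (0.56) and L1cam (0.44). None was called after adjustment (edgeR adjusted p 0.304 to 0.567), and the median of the 32 was 0.24. Over all genes the share at that unadjusted threshold was the 3.79% given above. Lgi4 read 3.37 to 5.73 CPM at 4 weeks and 5.08 to 11.3 at 6 weeks, and Scn7a 10.6 to 13.1 and 11.2 to 28, so that mice overlapped. Those of Col28a1 (5.68 to 7.04 and 7.29 to 12.2) and L1cam (15.5 to 17.6 and 18.4 to 24.7) did not. Whether these changes rested on a single mouse was not tested. From 8 to 10 weeks Cnp (1.23), Nrg1 (1.08) and Erbb2 (0.81) rose and Ncam1 fell (-0.41), 4 of the 32, where 16.8% of all genes were called.

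The ligands and co-receptors of the neurotrophin and GDNF families, among which Ngfr acts, were called in shares near those of all genes (26.3% higher and 27.2% lower) from 4 to 12 weeks. Of 13 tested, 4 rose, among them the receptor Gfra2 (2.10, edgeR adjusted p = 0.000243) and the ligand Ntf3 (1.87, edgeR adjusted p = 0.0244). Another 4 fell, the receptors Ret (-0.82) and Gfra1 (-0.54), the ligand Nrtn (-0.78) and Sort1 (-0.51), a partner of Ngfr in binding immature neurotrophins. Under the endocrine scaling these 4 were at 0.03 to 0.33, above 0 but below the median of all genes (0.80). Ntf3 lost its call without 4-week replicates 1 or 3 or 12-week replicate 2 (1.18 to 1.77, edgeR adjusted p up to 0.139), and 2 genes of the list were called higher without 4-week replicate 1 or 3. Of 13 genes of autonomic neurons and axons 1 rose, Hand2 (0.65), and 3 fell, Th (-0.64), Nefm (-0.60) and Tubb3 (-0.45), against the same shares of all genes. Under the endocrine scaling these 3 were at 0.20 to 0.39, again between 0 and the median of all genes. Hand2 was not called without 4-week replicates 2 or 3 or 12-week replicate 3 (0.56 to 0.59, edgeR adjusted p up to 0.0591), nor Th without 4-week replicates 1 or 2 or 12-week replicates 1 or 3 (-0.69 to -0.52, edgeR adjusted p up to 0.12), nor Tubb3 without 4-week replicates 1 or 2 or 12-week replicate 3 (-0.44 to -0.33, edgeR adjusted p up to 0.0855). Of 9 genes of astrocytes, oligodendrocytes and melanocytes only 4 were high enough to test, with 1 higher and 1 lower.

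Within an age, mice differed in all 5 genes, and it was asked whether the genes deviated from their age means together. Of the 10 pairs 8 had a positive Pearson r, from -0.34 for Cdh19 with Ngfr to 0.62 for Sox10 with Cdh19 (Spearman's rho 0.50). The latter had an exact permutation p of 0.151 (rho, 0.152), an adjusted permutation p of 0.55, the smallest of the 10, and an r of 0.37 without the 2 mice farthest from the median. Without 6-week replicate 1, which was the highest mouse of its age in 4 of the 5 genes, 5 of the 10 were positive.

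Each gene was also compared within ages with 4 marker lists of other cell types, a comparison chosen after the values were seen, and 4 of the 20 relations passed the test, all of them of Ngfr. The deviations of Ngfr from its age mean had a Pearson r of 0.94 with those of the lymphoid stroma markers (rho 0.87, adjusted exact permutation p = 0.00772 and 0.0103), and 0.86 without the 2 farthest mice. With the leukocyte markers r was 0.87 (rho 0.91, adjusted exact permutation p = 0.00386 and 0.00514), with fibroblasts and stellate cells 0.84 (rho 0.91, adjusted exact permutation p = 0.00772 for both) and with the endocrine markers -0.77 (rho -0.86, adjusted exact permutation p = 0.00386 and 0.00514). Without the 2 farthest mice these were 0.85, 0.88 and -0.79. None of the other 16 relations had an adjusted p under 0.05. Acinar markers were not among the 4 lists, and their relation to these genes was not tested. Sox10 ranked the mice of 6, 10 and 12 weeks in the same order as the acinar sum. At 6 weeks that sum was 8460, 2050 and 4630 CPM, with Sox10 at 7.45, 3.87 and 5.01 CPM. The 8-week mice ranked differently, with sums of 5370, 2770 and 1510 CPM and Sox10 at 5, 4.78 and 6.36. At 4 weeks the mouse with the highest sum (9750 CPM) was also highest in Sox10 (4.32 CPM). Against the leukocyte markers, r was -0.01 for Sox10, -0.59 for Cdh19, -0.21 for S100b and 0.42 for Gfap, and against the lymphoid stroma 0.26, -0.35, -0.05 and 0.52. The differences between these r values were not tested. Nor was the share of all genes with such relations determined. Within ages, Gfap came only 3967th among the genes that followed Ngfr (r = 0.487), so many genes followed it more closely. The 4 relations of Ngfr are not separate results. From 8-week replicate 1 to 3 the leukocyte sum rose from 177 to 1010 CPM while the endocrine sum fell from 21300 to 18300.

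**Figure D4:**
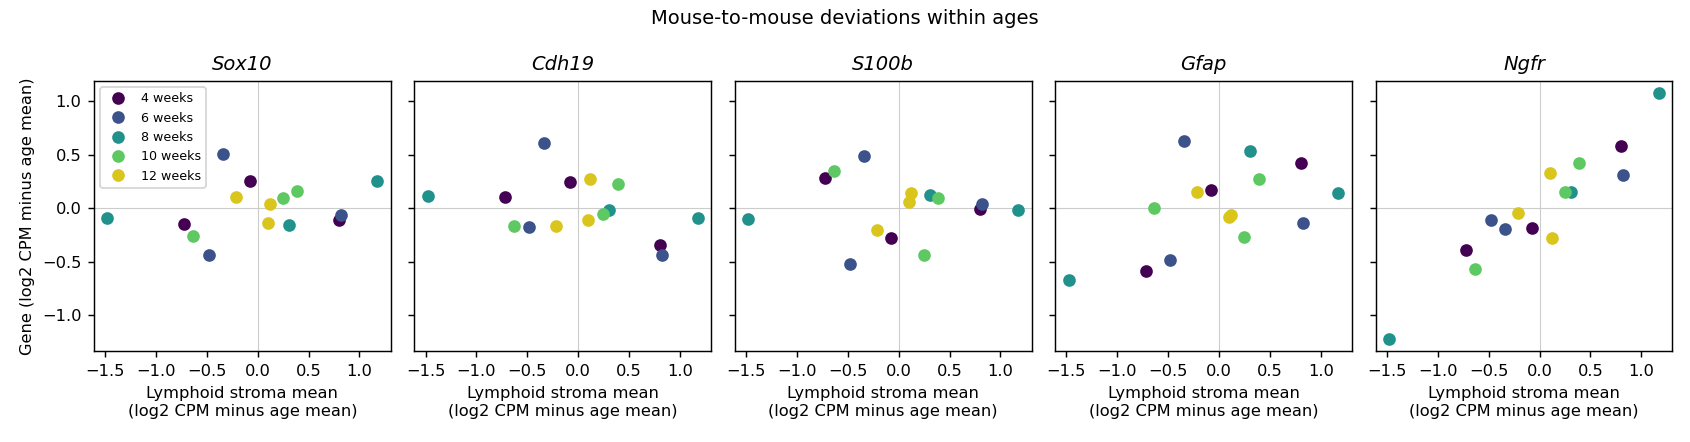
Deviation of each gene from its age mean (vertical axis, log2 CPM) against the deviation of the lymphoid stroma marker mean (horizontal axis, log2 CPM), with 1 point per mouse colored by age. The points of Ngfr rise along a line (r = 0.94), while those of the other 4 genes scatter with r between -0.35 and 0.52.

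Over all 15 mice, without regard to age, the genes whose log2 CPM followed each of the 5 most closely were also listed, as a description. They were Kcna1 (r = 0.925), Egfl8 (0.845) and the Schwann cell gene Scn7a (0.812) for Cdh19, Kcna2 (0.851), Wnt6 (0.851) and Col8a1 (0.844) for Sox10, and Sag (0.805), Rbm48 (0.8) and Pard3b (0.79) for S100b. For Ngfr they were Kcnk6 (0.986), Sh2b2 (0.984) and Parp3 (0.984), and for Gfap Bag3 (0.879), Tbc1d10a (0.879) and Arsi (0.877). With age means subtracted, Kcna1 stayed first for Cdh19 (0.93) and Tbc1d10a second for Gfap (0.919), and the others were replaced. The first was then Acacb (0.894) for Sox10, Tnfaip8 (0.981) for Ngfr, Agtpbp1 (0.902) for S100b and Hist1h2ah (0.92) for Gfap. In the ranking for Cdh19, Sox10 came 19th of all genes tested (r = 0.711) and S100b 27th (0.685), while Gfap came 2162nd (0.253) and Ngfr 6130th (0.057). In that for Sox10, Cdh19 came 54th, S100b 218th, Gfap 287th and Ngfr 1559th. With age means subtracted, the ranks for Cdh19 were 307th for Sox10 (0.622), 1931st for S100b (0.368), 3717th for Gfap (0.211) and 12986th for Ngfr (-0.34).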

How the data were processed

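RNA was extracted from islets and sequenced after polyA enrichment. The counts deposited by the authors are reads per gene from CLC Genomics Workbench 23.0 on mm10, per the submitters' processing notes, with no normalization. The TPM values deposited by the authors are scaled by gene length and library, and served only to order the genes by level. A further 30 per-sample columns (RPKM and CPM) and the authors' own comparisons (fold changes and p-values) were not used.

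Genes were kept by filterByExpr (16554 of 48709), scaled by TMM and fitted with edgeR 4.0.16 in R 4.3.3 (glmQLFit, glmQLFTest), 1 mean per age, with Benjamini-Hochberg adjustment over all genes tested. Log2 CPM used a prior count of 2. Permutation tests were exact and two-sided, and for correlations mice were shuffled within ages. The ages were read from the sample labels, and each mouse was treated as a replicate. Between replicates, chi-square divided by its degrees of freedom was 15.9 to 127, so none was a duplicate. Intervals for single genes are confidence intervals of the difference between age means, based on the spread between mice as edgeR estimates it. They are not ranges of single mice. The fit was tested on simulated data for 12 against 4 weeks, with 200 genes changed. It recovered 46% of the genes changed 1.5-fold, 62% of those changed 2-fold and 78% of those changed 4-fold. Of its calls 1.55% were false. Promoter windows came from RefSeq (GRCm38.p6).

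The 5 genes and all gene lists were chosen with earlier results of these data known. Named genes were the 5, the listed Schwann, neurotrophin and neuron genes past an adjusted p of 0.05, up to 4 of the most abundant genes of a list, and the 3 genes most correlated with each of the 5. Some genes that fall under this rule are not reported here, though they count in their lists. Of 23 listed leukocyte markers 22 were used. Lists of endothelial, acinar, duct and adipose markers held 3 of 6, 0 of 7, 2 of 5 and 0 of 1 tested genes higher at 12 than at 4 weeks, against 26.3% of all genes, and 6 of 7 acinar genes were higher without 4-week replicate 2. Alternatives were DESeq2 size factors, library totals, an endocrine scaling, no filter, 2 ages alone, the edgeR exact test, DESeq2 1.42.0, a leukocyte covariate, a prior count of 0.5, a replicate block, and leaving out each mouse.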

Additional observations from a re-analysis of the deposited data

How the results depend on the processing

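Of the 5 genes, 4 were called at 12 against 4 weeks. The number was 1 without the filter on low counts, 0 with the leukocyte covariate, 2 without both libraries with intestinal counts, an alternative chosen after the data were seen, and 1 to 4 with single mice left out. At the fold threshold the 4 became 1 with the covariate and 3 to 5 with mice left out. The log2 change of Sox10 was 0.60 without the filter (adjusted p = 0.113), 0.66 with the covariate (0.756), 0.55 without both intestinal libraries (0.0637) and 0.53 to 0.74 with mice left out, all by edgeR. For Cdh19 the same values were 0.74 (0.131), 1.73 (0.334), 0.83 (0.0528) and 0.58 to 0.87, and for S100b 0.90 (0.071) without the filter, 1.32 (0.591) with the covariate and 0.77 to 1.08. Ngfr reversed to -0.38 with the covariate (-0.25 at 8 against 6 weeks), and ran from 2.18 to 2.72 with mice left out. Gfap became called with library totals (0.95) and the endocrine scaling (1.55), which called 8376 and 13162 of the 16554 genes tested, mostly higher. It reversed to -0.11 with the covariate, and ran from 0.46 to 0.94 with mice left out. The covariate fit could not tell age from the leukocyte markers, and the cause of these changes was not tested. Any change over the 5 ages, 1 gene, was found for 4 with library totals, 5 with the endocrine scaling, 0 with the covariate, 2 without both intestinal libraries, and 1 to 2 with mice left out. The fold threshold count went from 2 to between 1 and 3 at 6 against 4 weeks. At 8 against 6 weeks it went from 1 to 0 with the covariate and without both intestinal libraries, and to 0 to 2 with mice left out, when 0 to 1 passed the adjusted test. At 10 against 8 weeks it was 0 to 1. Of 10 correlations between the genes, 8 were positive, and 5 to 9 were with mice left out.

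Each age used its own animals, and same-numbered mice did not deviate together in all 3 pairs of any comparison (correlation -0.159 to 0.102 at 12 against 4 weeks, with 2 of 6 mice closest to their own number). At 8 against 6 weeks 2 pairs did (0.509 and 0.489, the other -0.118, 4 of 6 mice closest to their own number), and in the other 3 comparisons the correlations ran from -0.504 to 0.0889 with 0 of 6. With the replicate number as a block 2 of the 5 genes were called at 12 against 4 weeks, the log2 change being 0.60 for Sox10 (edgeR adjusted p = 0.0546) and 0.73 for Cdh19 (edgeR adjusted p = 0.0551).

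Among 33 other named genes, 738 of 824 values kept their direction and side of the threshold, 73 lost the call, 1 gained it and 12 reversed. Under the endocrine scaling, by which 99% of called genes were higher, against 49.2% with TMM and 78.3% with library totals, Ncam1 was 0.10, Gap43 0.47, Sort1 0.33, Nrtn 0.06, Gfra1 0.31, Ret 0.03, Th 0.20, Nefm 0.25 and Tubb3 0.39 (log2). With the covariate Chl1 was -0.14 and Hand2 -0.27. At 3 mice per age, the 95% intervals of Cdh19, S100b, Gfap and Ngfr at 12 against 4 weeks were wider than 1.5-fold to either side. The widest was that of Ngfr (2.54-fold to 10.5-fold, SE 0.472), which had the most counts, while S100b had 15 to 55 per mouse.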
